A study of Mus musculus with 2 samples.

Results

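The ligands and receptors of axon guidance were followed in esophagus from E18.5 mouse embryos, shortly before birth. Members were taken by gene name: semaphorins of classes 3 to 7, plexins, neuropilins, ephrins, Eph receptors, Slits, Robos, netrins and Unc5 receptors, on probe sets that the platform annotation assigns to 1 gene. This gave 148 of the 34945 probe sets with 1 gene symbol, covering 67 of 18193 genes. All 67 symbols matched RefSeq by Entrez ID. Members were chosen by name and not by their signal, though with earlier results of these data known.

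One sample is labelled Myf5-/-:MyoD-/- and the other wild type, and the genotype labels place both in the BALB/c strain. Myf5 and MyoD are the transcription factors that set cells on the skeletal muscle path. There was 1 array of each kind, made from total RNA of whole esophagus, and the sources used here do not say how many embryos each RNA came from. With 1 array per genotype no statistical test was possible, and every difference below is one between 2 RNA samples. The values are MAS5 signals, in arbitrary units on a linear scale, and signals of different probe sets cannot be set against each other.

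The labels were checked first. Myf5 read 496 on the null-labelled array, against 4072 on the wild-type array, 8.22-fold lower. Myod1 read 1698 on the null-labelled array, against 2001 on the wild-type array, at its higher-signal probe set, and its other probe set was under the limit defined below on both arrays. Whether the Myod1 probes fall in the deleted part of the gene is not known here, so that signal checks nothing, and the array is called null-labelled throughout.

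Axon guidance cues are secreted or membrane-bound proteins that attract or repel growing axons through receptors on the growth cone. Semaphorins act through plexins, with neuropilins as coreceptors for most secreted ones. Ephrins act through Eph receptor tyrosine kinases on neighbouring cells, Slits through Robo receptors, and netrins through Dcc, neogenin and Unc5 receptors. The same proteins also guide migrating neural crest cells, muscle precursors and blood vessels, and in the gut they take part in the placing of enteric neurons.

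Ratios are log2 of null-labelled over wild-type signal. Signals under 489, the median signal of the non-control probe sets of both arrays pooled, were raised to that limit first. A gene under it on both arrays was counted as not measured, and a gene under it on 1 array has a ratio that is only a bound, written "at least". A gene with several probe sets is represented by the one with the highest mean signal unless stated. By these rules 54 of the 67 members (80.6%) were measured, against 73.2% of all named genes. The 13 others were Sema3g, Sema5b, Sema6b, Epha6, Epha8, Epha10, Ephb4, Slit1, Robo2, Ntn3, Ntn5, Unc5a and Unc5d. A signal under the limit does not show that a gene is silent.

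On the null-labelled array 7 of the 54 measured members read at least 2-fold higher (13.0%), against 6.01% of all 13315 measured genes. The 7 were Sema4b, Sema4f, Sema3c, the coreceptor Nrp2, the netrin receptor Unc5c, Plxnb3 and Efna2. Only Sema3f, 1 of 54 (1.85%), read at least 2-fold lower, against 5.36% of all measured genes. The median log2 ratio was 0.25 over the measured members and 0.086 over all measured genes, and 35 of the 54 (64.8%) lay above 0, against 56.6% of all. Among genes at or above the limit on both arrays, 5 of 45 members (11.1%) were 2-fold higher, against 4.4% of such genes, and 1 (2.22%) was 2-fold lower, against 4.99%.

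The count of higher members depends on which probe set stands for a gene. With the median ratio of each gene's measured probe sets, 2 of 54 members (3.7%) were 2-fold higher and 0 lower, against 4.55% and 4.03% of all genes. The 2 were Sema4b and Plxnb3, each with 1 measured probe set. The split of calls also moved with the scaling. Centring on the median ratio gave 5 higher and 2 lower members, against 4.6% and 6.24% of all genes. Quantile normalization gave 6 and 2, against 4.15% and 6.16%, and loess on signal gave 6 and 2, against 3.43% and 7.16%. Whether the members' share of higher genes lay above that of all genes changed with the low-signal limit. A limit at the 25th percentile gave 9 of 66 members higher (13.6%) and 4 lower (6.06%), against 16.6% and 7.45% of all genes. With no limit and a pseudocount of 16, 12 of 67 were higher (17.9%) and 8 lower (11.9%), against 19.5% and 9.37% of all genes. A 75th percentile limit gave 3 of 34 higher (8.82%) and 1 lower (2.94%), against 1.85% and 4.8% of all genes. Without _x_at and _s_at probe sets 6 of 53 were higher (11.3%) and 0 lower, against 6.01% and 5.28% of all genes. Over single probe sets, 10 of 93 measured ones (10.8%) were 2-fold higher and 4 (4.3%) 2-fold lower, against 5.94% and 4.94% of all.

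**Figure D1:**
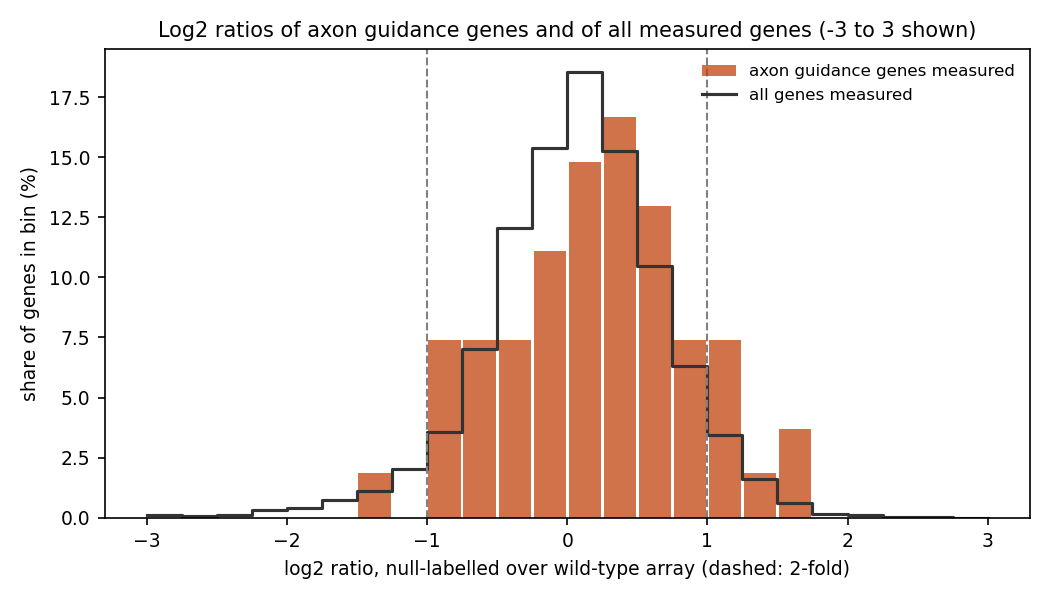
Share of genes (%) in bins of the log2 ratio, null-labelled over wild-type array, for the 54 measured axon guidance genes (bars) and all 13315 measured genes (line), between -3 and 3. The members lie mostly between -1 and 1, with 7 above the upper and 1 below the lower 2-fold mark.

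In whole tissue, fewer cells of a type and less RNA per cell cannot be told apart, so marker genes of the esophagus's cell types are given beside these counts. A summed signal is led by the brightest probe sets of a list. Of all measured genes 6.01% were at least 2-fold higher and 5.36% lower. All 12 striated muscle markers were at least 2-fold lower on the null-labelled array, Myh3, Ttn, Tnnc2 and Acta1 the most, with a summed signal of 9791, against 424923 on the wild-type array. Of 13 measured enteric and autonomic neuron markers 4 were lower (Dcx, Nefl, Ret and Snap25) and 0 higher, with sums of 13418 on the null-labelled and 20773 on the wild-type array and a median log2 ratio of -0.60. Second probe sets of Nefl, Ret and Snap25 had bounds of -1.92, -0.025 and 0.25. Of 10 smooth muscle markers 3 were higher (Mylk, Lmod1 as a bound, and Myocd) and 1 lower (Des). A second Des probe set went the other way, at a bound of 0.83. The sums were 657635 on the null-labelled and 326992 on the wild-type array. Without Mylk and Acta2, the brightest, the other 8 summed to 88176 on the null-labelled and 80350 on the wild-type array. Of 8 endothelial markers 2 were higher (Emcn and Flt1) and 1 lower (Eng), all as bounds. A second Eng probe set had a bound of 0.84, and the other measured Flt1 probe sets had bounds of 0.63 and -0.18. The sums were 8526 on the null-labelled and 9604 on the wild-type array, and Pecam1 and Tie1 were under the limit on both arrays. None of 8 glia and Schwann cell markers was 2-fold apart at its highest-signal probe set. Erbb3 and Mbp, the brightest, had log2 ratios of -0.73 and 0.067. A second Sox10 probe set read 1099 on the null-labelled and 526 on the wild-type array, a log2 ratio of 1.06. The sums were 21494 on the null-labelled and 27930 on the wild-type array. Of 10 epithelial markers 2 were lower (Krt14 and Krt8) and 0 higher, with sums of 366867 on the null-labelled and 363517 on the wild-type array. Of 9 fibroblast markers 2 were lower (Pdgfrb and Vim) and 0 higher, with sums of 467695 on the null-labelled and 359096 on the wild-type array. Of 5 white blood cell markers Ptprc (8.57-fold) and Lyz2 were higher and C1qb lower, with sums of 24336 on the null-labelled and 20968 on the wild-type array. A second C1qb probe set had a log2 ratio of -0.19. Csf1r and Mrc1 had log2 ratios of 0.009 and -0.10, and C1qa, Cd68, Itgam, Aif1 and Cd3e were under the limit on both arrays. Of 4 cartilage markers 1 was higher (Sox9) and 0 lower, with sums of 4692 on the null-labelled and 2663 on the wild-type array. Col2a1, Matn1, Matn3 and Col11a2 were under the limit on both arrays. The part of these cell types in the ratios of the guidance genes was not tested.

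The promoters of 3 of the 7 genes that read at least 2-fold higher are printed here, those of a secreted ligand, its coreceptor and a netrin receptor, chosen after their values were seen. Each window runs from 250 bases before to 50 after the gene's start in RefSeq on GRCm38.p6, 5′ to 3′, and all lie on the plus strand. Capitals mark CANNTG, the E-box letters that Myf5 and MyoD are known to bind.
Sema3c, chr5:17574566-17574865: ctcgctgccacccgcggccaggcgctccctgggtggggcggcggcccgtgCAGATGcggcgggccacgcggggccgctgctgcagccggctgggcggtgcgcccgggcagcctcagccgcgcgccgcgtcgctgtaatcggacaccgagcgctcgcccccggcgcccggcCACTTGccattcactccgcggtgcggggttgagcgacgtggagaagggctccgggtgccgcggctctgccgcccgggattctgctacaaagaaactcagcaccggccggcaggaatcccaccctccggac
Nrp2, chr1:62703067-62703366: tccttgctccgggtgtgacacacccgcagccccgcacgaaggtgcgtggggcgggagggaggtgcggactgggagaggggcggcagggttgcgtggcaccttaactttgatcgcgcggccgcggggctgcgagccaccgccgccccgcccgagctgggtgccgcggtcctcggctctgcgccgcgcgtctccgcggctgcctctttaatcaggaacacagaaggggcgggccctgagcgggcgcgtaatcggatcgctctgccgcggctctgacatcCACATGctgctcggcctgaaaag
Unc5c, chr3:141465314-141465613: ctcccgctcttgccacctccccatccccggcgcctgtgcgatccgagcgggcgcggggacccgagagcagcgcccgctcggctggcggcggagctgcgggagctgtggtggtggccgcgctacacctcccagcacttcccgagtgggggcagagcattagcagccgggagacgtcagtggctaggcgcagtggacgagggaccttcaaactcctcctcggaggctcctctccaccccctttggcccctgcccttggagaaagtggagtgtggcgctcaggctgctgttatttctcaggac
The Sema3c window holds 2 matches, the Nrp2 window 1 and the Unc5c window 0. The motif reads the same on both strands as a pattern, and it also covers CAGCTG, which none of the 3 printed windows holds. Of the other genes that read at least 2-fold higher, the Sema4f window holds 3 matches, the Plxnb3 window 3, of which 2 are CAGCTG, the Sema4b windows 0 and 2, and the Efna2 window 0. No window was found for Sema3f, the 1 member that read at least 2-fold lower. Of all 32851 RefSeq promoter windows of this length 72.3% hold CANNTG and 16.3% hold CAGCTG. Of the 74 windows of the 58 members found in the table, 37 hold CANNTG and 12 hold CAGCTG. A match is a run of letters and was not shown to be bound.

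With the limit at 489, semaphorins held the highest and the lowest ratio among the measured members. Of 17 measured genes 3 were at least 2-fold higher and 1 lower, with a median log2 ratio of 0.20, and 10 of the 17 lay above 0. Sema3f, a secreted repellent that acts through Nrp2, read 7811 on the null-labelled array, against 18631 on the wild-type array, 2.39-fold lower. Its second measured probe set read 111 on the null-labelled and 789 on the wild-type array, at least 1.61-fold lower. Both measured probe sets of Sema3f thus read lower on the null-labelled array. The second passed the limit on the wild-type array alone, so its ratio could only lie below 0 and is no check of the sign. The 2-fold call rests on a probe set whose name ends in _x_at, a type that may also detect related transcripts. Of 13315 measured genes, 438 had a lower ratio than Sema3f.

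Sema3c, a secreted semaphorin that binds neuropilins and guides cardiac neural crest and vessels, went the other way. It read 9824 on the null-labelled array, against 4718 on the wild-type array, 2.08-fold higher, and its second probe set read 750 on the null-labelled and 440 on the wild-type array, at least 1.53-fold higher. Centred on the median ratio of all genes, its log2 ratio was 0.97, below the 2-fold mark. Sema3d, also secreted, read 4454 on the null-labelled array, against 3080 on the wild-type array, 1.45-fold higher, and its second probe set read 1242 on the null-labelled and 241 on the wild-type array, at least 2.54-fold higher. Sema3e, the ligand of plexin D1, read 1769 on the null-labelled and 1139 on the wild-type array. Sema3a, the founding secreted repellent of sensory and motor axons, read 5122 on the null-labelled array, against 4553 on the wild-type array, a log2 ratio of 0.17. Sema3b, at 249 on the null-labelled and 722 on the wild-type array, was at least 1.48-fold lower. Of the 6 measured class 3 genes, 4 were thus above 0 and 2 below. Sema3a, Sema3b and Sema3e, like other members outside the naming rule, are given after their values were seen.

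Sema4b, one of the membrane-spanning class 4 semaphorins, had the highest of these ratios. It read 11627 on the null-labelled array, against 3466 on the wild-type array, 3.35-fold higher, and 46 of 13315 genes had a higher ratio. Its other probe set was under the limit on both arrays. Sema4f read 1431 on the null-labelled array, against 503 on the wild-type array, 2.85-fold higher, but its second probe set read 955 on the null-labelled and 873 on the wild-type array, 1.09-fold higher. The wild-type signal of that first Sema4f probe set lay next to the limit, and with the limit at the 75th percentile its log2 ratio was 0.034. Sema4c, a ligand of plexin B2, read 4466 on the null-labelled array, against 6998 on the wild-type array, 1.57-fold lower, while Sema4a, Sema4d and Sema4g had log2 ratios of 0.54, 0.22 and 0.27. Of the 6 measured class 4 genes, 5 lay above 0 as reported here.

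Class 6 semaphorins, transmembrane ligands of class A plexins, read lower at their highest-signal probe sets. Sema6c read 7582 on the null-labelled array, against 12810 on the wild-type array, 1.69-fold lower, and its second probe set read 480 on the null-labelled and 1125 on the wild-type array, at least 2.3-fold lower. Sema6d read 1476 on the null-labelled and 2613 on the wild-type array, a log2 ratio of -0.82, and its other measured probe sets had -0.29 and a bound of 0.63. Sema6a read 1167 on the null-labelled and 1313 on the wild-type array, with a second probe set at a bound of 0.74. Taking the median over a gene's probe sets, 1 of these 3 genes lay above 0, so the shared direction holds for the highest-signal probe sets only. Sema5a read 2562 on the null-labelled and 3688 on the wild-type array, a log2 ratio of -0.53, and Sema7a, which is anchored to the membrane by a lipid, read 567 on the null-labelled and 495 on the wild-type array.

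Plexins, the signalling receptors of semaphorins, showed no common direction. All 9 were measured, 4 above 0 and 5 below, with a median of -0.079. Plxnb3, a receptor for Sema5a, read 983 on the null-labelled array, against 78 on the wild-type array, at least 2.01-fold higher, and its second probe set was under the limit on both arrays. That ratio lies at the 2-fold mark and passed it in 3 of the 6 alternatives in which the gene was measured. Of these 3, the median over its 1 measured probe set could not move the ratio. Plxnb1, the receptor of Sema4d, had probe sets on opposite sides. One probe set read 4106 on the null-labelled array, against 2591 on the wild-type array, 1.58-fold higher, and the other read 1076 on the null-labelled and 2332 on the wild-type array, 2.17-fold lower. Plxna2 also had opposed probe sets, with log2 ratios of 0.45 and 0.38 and a bound of -1.26. Plxnd1, the endothelial receptor of Sema3e, read 115 on the null-labelled array, against 948 on the wild-type array, at least 1.94-fold lower. Plxnb2, a receptor of Sema4c, read 3534 on the null-labelled and 4433 on the wild-type array, 1.25-fold lower. Plxnc1, the receptor of Sema7a, read 590 on the null-labelled and 681 on the wild-type array, a log2 ratio of -0.21. Among the class A plexins, which signal for neuropilin-bound semaphorins, Plxna4 had a log2 ratio of -0.079, Plxna3 of -0.17 and Plxna1 of 0.64.

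Of the neuropilins, the coreceptors that secreted semaphorins bind, 1 was 2-fold higher. Nrp2, the coreceptor of Sema3f and of the lymphatic growth factor Vegfc, read 5118 on the null-labelled array, against 2148 on the wild-type array, 2.38-fold higher. Its other measured probe sets read 4127 and 3637 on the null-labelled array, against 2936 and 2100 on the wild-type array, with log2 ratios of 0.49 and 0.79. All 3 measured Nrp2 probe sets were thus higher on the null-labelled array, 1 of them by 2-fold. Nrp1, the coreceptor of Sema3a and of Vegfa, read 9299 on the null-labelled and 8518 on the wild-type array, a log2 ratio of 0.13, and its 3 other probe sets had -0.46, -0.40 and 0.062. Between Sema3f and its coreceptor the signs were opposite, with log2 ratios of -1.25 and 1.25.

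**Figure D2:**
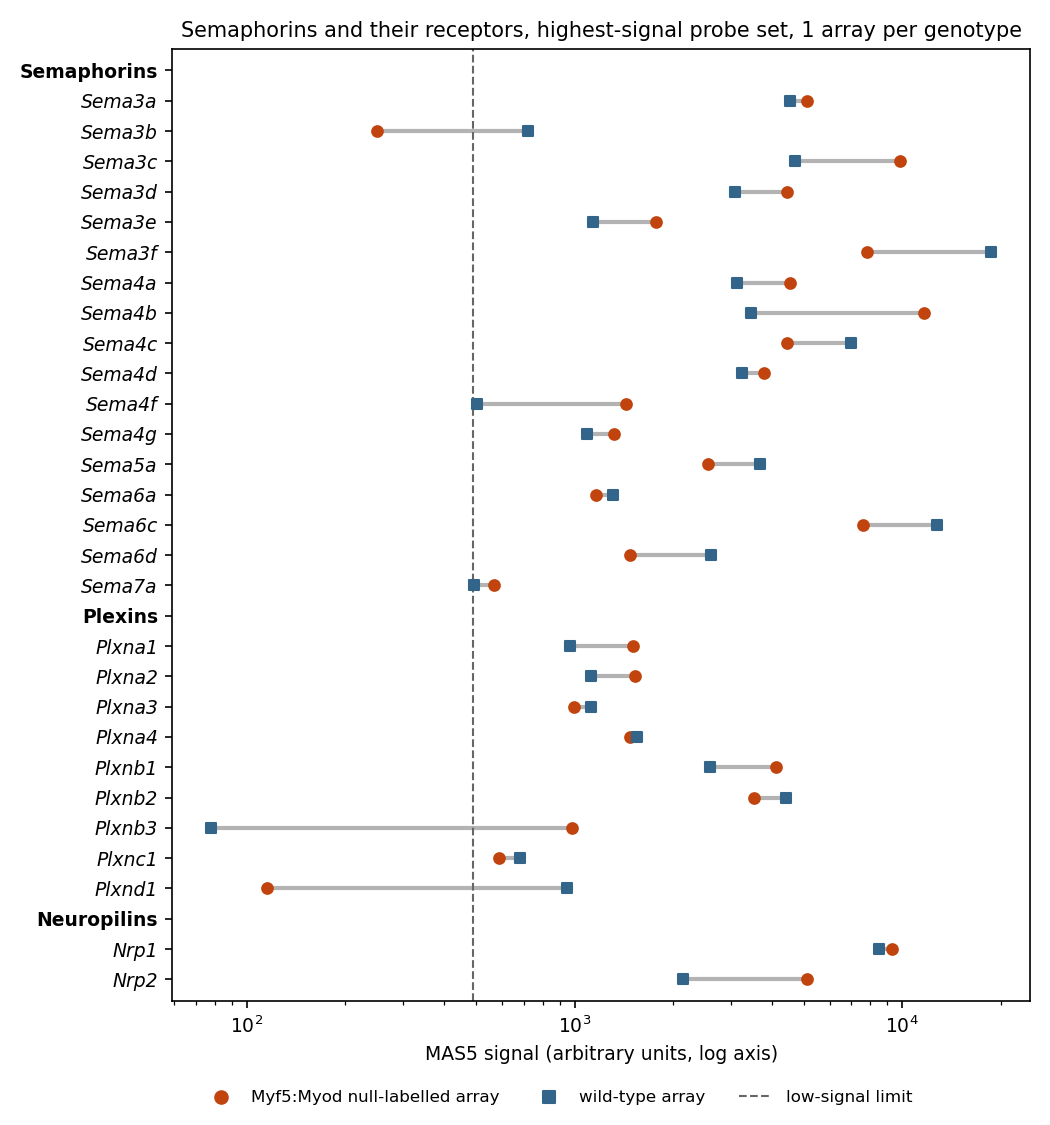
MAS5 signal (arbitrary units, log axis) of the measured semaphorins, plexins and neuropilins at the highest-signal probe set, with a circle for the null-labelled and a square for the wild-type array. The dashed line is the low-signal limit of 489. Sema3f lies lower on the null-labelled array (7811, against 18631 on the wild-type array) while Sema3c, Sema4b, Sema4f and Nrp2 lie higher.

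Ephrins, the membrane-bound ligands of Eph receptors, all read higher at their highest-signal probe sets. The 8 ratios above 0 ran from 0.088 (Efnb1) to a bound of 1.20 (Efna2) with a median of 0.43. The 3 bounds (Efna1, Efna2 and Efna4) could only lie above 0, and the 5 ephrins above the limit on both arrays lay above 0 as well. With quantile normalization or loess 7 of the 8 lay above 0. Efna2, anchored to the membrane by a lipid like other ephrin-A proteins, read 1122 on the null-labelled array, against 393 on the wild-type array, at least 2.29-fold higher. Its second probe set went the other way, at 106 on the null-labelled and 569 on the wild-type array, a bound of -0.22. Efna5, a repellent in topographic maps, read 3922 on the null-labelled array, against 3042 on the wild-type array, and Efna3 read 1787 on the null-labelled and 995 on the wild-type array, 1.79-fold higher. Efna1 and Efna4 crossed the limit between the arrays, with bounds of 0.36 and 0.54.

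The ephrin-B proteins span the membrane and also signal into the cell that carries them. Efnb2, a marker of arteries that acts in migrating neural crest as well, read 10048 on the null-labelled array, against 7116 on the wild-type array, 1.41-fold higher, and its second probe set read 6723 on the null-labelled and 6162 on the wild-type array. Efnb1 had 3 measured probe sets, which read 1718, 1814 and 1475 on the null-labelled array, against 1616, 1052 and 672 on the wild-type array. Their log2 ratios were 0.088, 0.79 and 1.13, so the probe set that represents the gene had the smallest difference. Efnb3 read 1076 on the null-labelled and 874 on the wild-type array, a log2 ratio of 0.30. All 6 measured ephrin-B probe sets lay above 0 as reported here.

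Eph receptors lay on both sides of 0. Of 9 measured genes 4 lay above 0 and 5 below, with a median of -0.06 and none 2-fold apart. Ephb3, a receptor that positions epithelial cells in the intestine, read 8756 on the null-labelled array, against 5515 on the wild-type array, 1.59-fold higher. Epha7 read 3839 on the null-labelled and 2088 on the wild-type array, 1.84-fold higher, and its second probe set read 926 on the null-labelled and 822 on the wild-type array, a log2 ratio of 0.17. Epha4, which binds ephrins of both classes, had 4 measured probe sets with log2 ratios between 0.27 and 0.36, 1 of them a bound. Epha3 stood near 0, with a log2 ratio of -0.14 at 3305 on the null-labelled and 3636 on the wild-type array and 0.19 at 3633 on the null-labelled and 3182 on the wild-type array. Epha5 had probe sets on opposite sides, at 871 on the null-labelled and 1218 on the wild-type array and at 1164 on the null-labelled and 619 on the wild-type array. The other measured receptors, Epha1, Epha2, Ephb1 and Ephb6, lay between -0.60 and a bound of 0.10. Whether ligands and receptors differed as groups was not tested.

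Slit2, a secreted repellent of axons and migrating cells, read 6927 on the null-labelled array, against 12687 on the wild-type array, 1.83-fold lower. Its second measured probe set read 1057 on the null-labelled and 269 on the wild-type array, at least 2.16-fold higher, so the direction of Slit2 is not settled by these arrays. Slit3 read 866 on the null-labelled array, against 645 on the wild-type array, a log2 ratio of 0.43 that shrank to 0.028 with loess. Of the 3 measured Robo receptors only Robo1 was above the limit on both arrays. The other two passed it on the null-labelled array alone, so their ratios could only lie above 0. Robo1, a main receptor of Slits, read 3107 on the null-labelled array, against 1686 on the wild-type array, 1.84-fold higher, and its second probe set read 508 on the null-labelled and 79 on the wild-type array, at least 1.04-fold higher. Robo4, an endothelial receptor, read 939 on the null-labelled and 489 on the wild-type array, with the wild-type signal just under the limit, at least 1.92-fold higher. Robo3, known for axons that cross the midline, read 562 on the null-labelled and 244 on the wild-type array, at least 1.15-fold higher.

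Neither measured netrin was 2-fold apart, while 1 of their receptors was. Ntn1, the attractant of commissural axons, read 3351 on the null-labelled array, against 2689 on the wild-type array, 1.25-fold higher, and its second probe set read 780 on the null-labelled and 335 on the wild-type array, at least 1.6-fold higher. Ntn4, a netrin of basement membranes, read 944 on the null-labelled and 1264 on the wild-type array, 1.34-fold lower. Unc5c, a netrin receptor of repulsive responses, read 2765 on the null-labelled array, against 1239 on the wild-type array, 2.23-fold higher. Its second probe set read 563 on the null-labelled and 97 on the wild-type array, at least 1.15-fold higher. Unc5b, the Unc5 receptor of blood vessels, read 3817 on the null-labelled and 3328 on the wild-type array, 1.15-fold higher, with a second probe set at 696 on the null-labelled and 623 on the wild-type array.

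**Figure D3:**
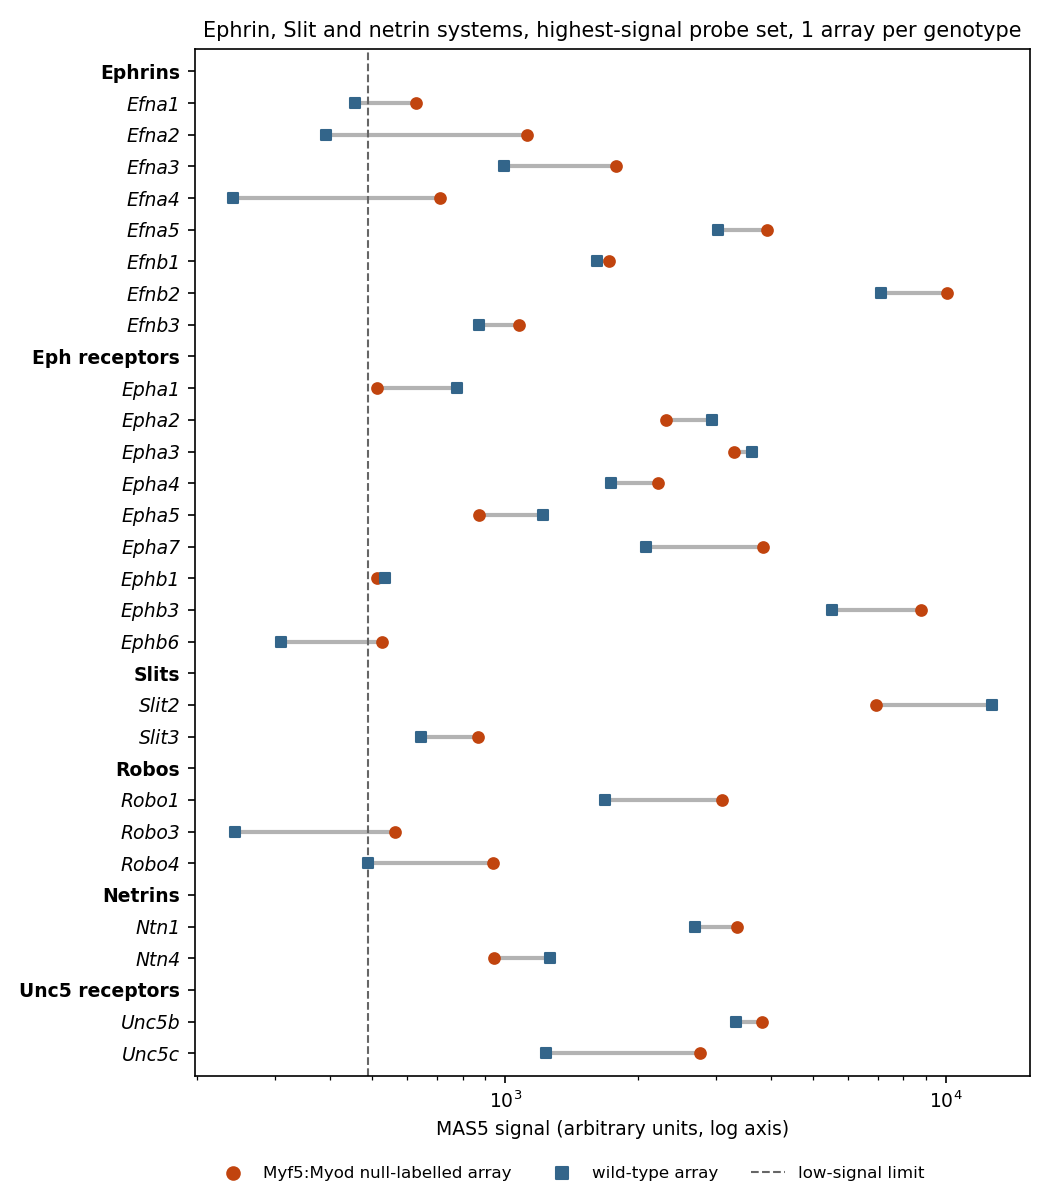
MAS5 signal (arbitrary units, log axis) of the measured ephrins, Eph receptors, Slits, Robos, netrins and Unc5 receptors at the highest-signal probe set, with a circle for the null-labelled and a square for the wild-type array. The dashed line is the low-signal limit of 489. All 8 ephrins have the circle to the right of the square, and Unc5c stands furthest apart among genes above the limit on both arrays.

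The only error these data hold is the disagreement between probe sets of 1 gene. Over the 29 members with several measured probe sets (68 probe sets) its pooled SD was 0.59 on the log2 scale, against 0.56 over 14307 probe sets of all genes. Both values include bounds, with the signal under the limit raised to it, so they are not the spread of the unlimited ratios. All measured probe sets lay above 0 in 14 of the 29 genes, below 0 in 4 and on both sides in 11. Over all 5455 genes with several measured probe sets these counts were 1650, 952 and 2853. The sign of a bound is set by which array passed the limit. Among the 15 genes with several probe sets above the limit on both arrays, these lay above 0 in 9, below 0 in 1 and on both sides in 5. Of the 7 members that were 2-fold higher, 5 had a second measured probe set and in 0 of these was a second one also 2-fold higher. In Sema4f and Nrp2 the others were above the limit on both arrays and lay above 0. In Sema3c, Unc5c and Efna2 the other was a bound, which is no check of the sign. This spread leaves out the variation between embryos.

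**Figure D4:**
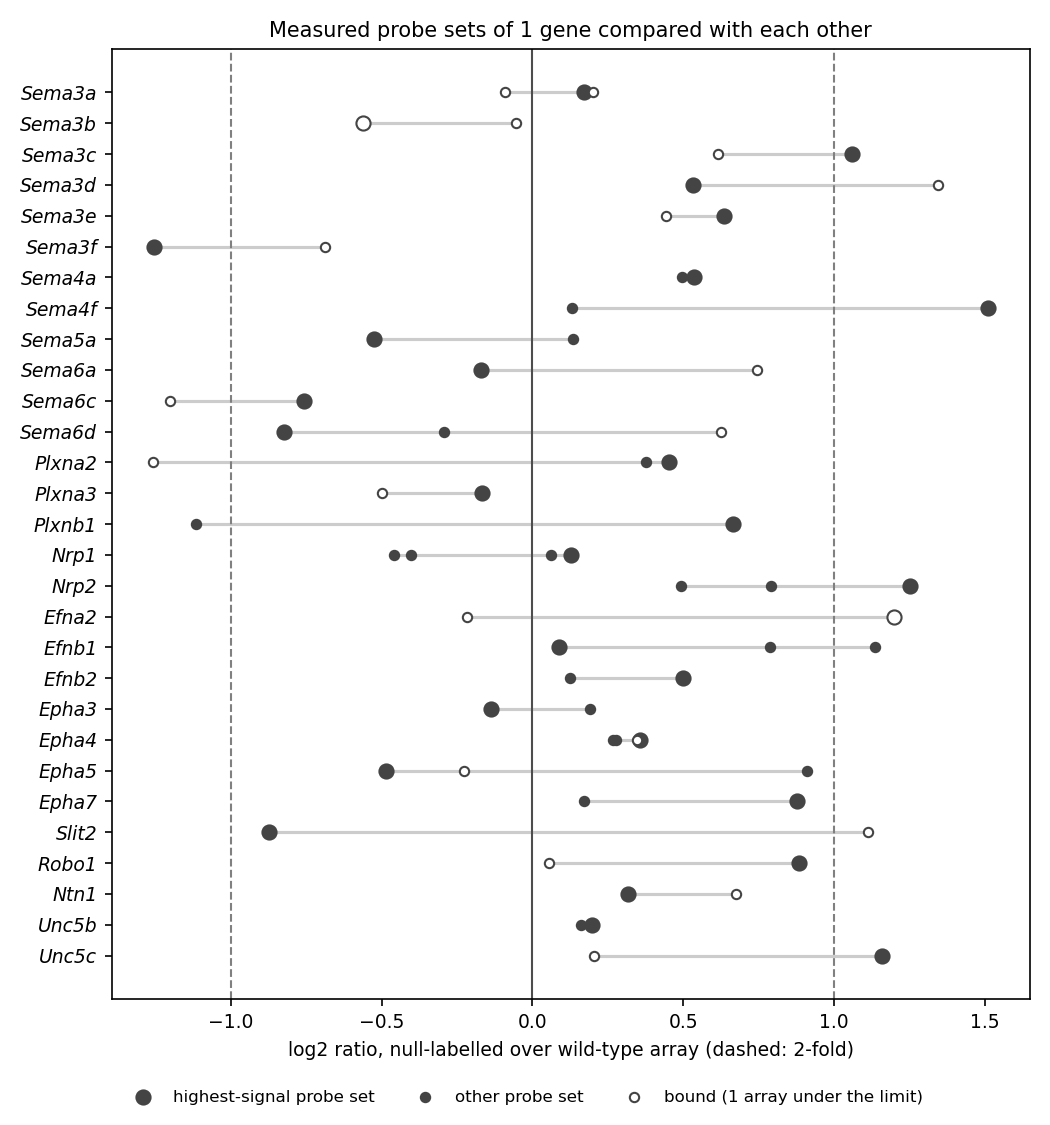
Log2 ratio, null-labelled over wild-type array, for every measured probe set of the 29 members that have several, with large points for the highest-signal probe set and open points for bounds. Dashed lines mark 2-fold. Nrp2 and Epha4 lie wholly above 0 and Sema3f and Sema6c below, while Plxna2, Plxnb1, Efna2 and Slit2 span 0 with a probe set past a 2-fold mark.

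Under the other ways of processing the arrays all 8 members that were 2-fold apart kept their sign wherever they were measured. Sema4b was at least 2-fold higher in all 8 alternatives and Nrp2 in 7 of 8, the exception being the median of probe sets (0.79). Some of these alternatives could not move the ratio and are no check of it. Sema4b stayed at 1.75 with both other limits, with the median over its 1 measured probe set and without _x_at and _s_at probe sets. Nrp2 stayed at 1.25 with both other limits and without _x_at and _s_at probe sets. Sema3c, Sema4f and Unc5c passed in 6 of 8 alternatives, Sema3f in 6 of 8 on the lower side and Efna2 in 6 of 7. Some alternatives left these ratios unchanged too.

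**Figure D5:**
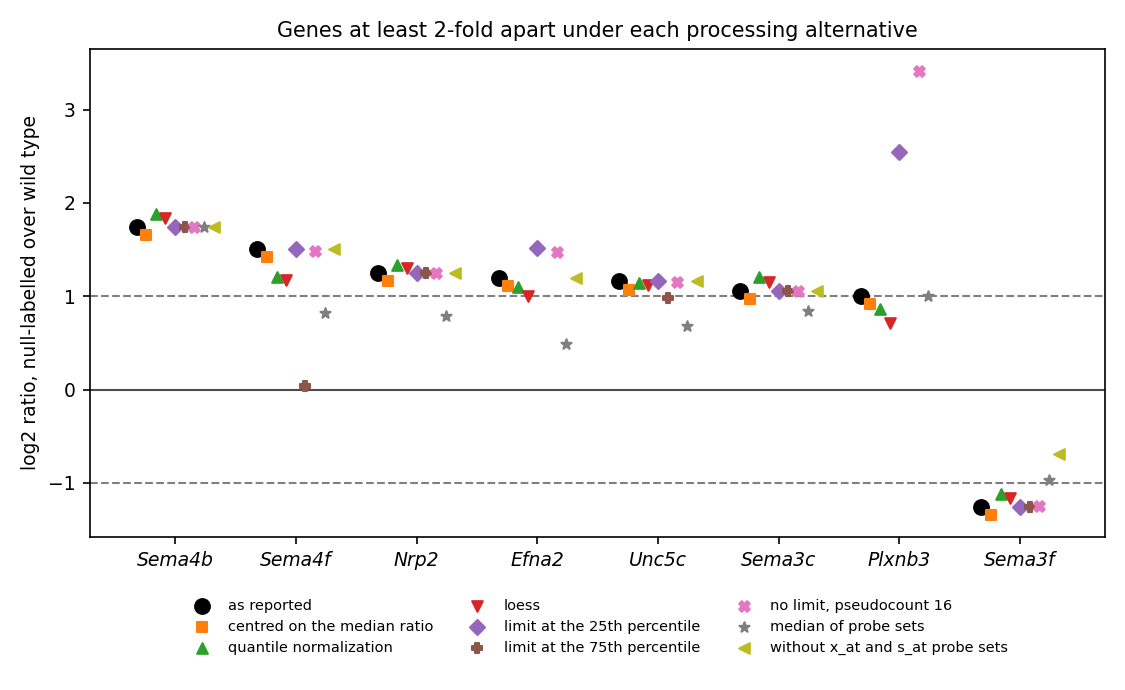
Log2 ratio, null-labelled over wild-type array, for the 8 members at least 2-fold apart, as reported (black circle) and under 8 alternatives (coloured symbols), with dashed lines at 2-fold. Sema4b lies between 1.66 and 1.88 throughout, Sema4f between 0.034 and 1.51, and Sema3f between -1.34 and -0.69.

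Genes that work with these families were read from 3 lists. Of 11 measured receptors and partners of netrins and of the neogenin ligands 9 lay above 0 (81.8%), against 56.6% of all measured genes. Of these 11 ratios 3 were bounds, whose sign is set by which array passed the limit. In this list 1 gene was 2-fold higher and 0 lower (median 0.63). The 1 was Draxin, a secreted protein that binds netrin receptors, at 1032 on the null-labelled array, against 147 on the wild-type array, at least 2.11-fold higher, with a second probe set at a bound of 0.13.

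Of 18 collapsin response mediators, kinases and other signalling partners, among them Nck1 and Grip1, 1 was higher and 1 lower (median 0.022). Crmp1, a neuronal mediator of Sema3a signals, read 426 on the null-labelled array, against 1387 on the wild-type array, at least 2.84-fold lower, and its relative Dpysl5 read 996 on the null-labelled and 183 on the wild-type array, at least 2.04-fold higher. Of 20 other guidance cues and adhesion receptors 0 were higher and 1 lower (median -0.096). That gene was Met, the receptor by which hepatocyte growth factor draws muscle precursors and some axons, at 6847 on the null-labelled array, against 15904 on the wild-type array, 2.32-fold lower. Each of these counts stands beside 6.01% higher and 5.36% lower among all measured genes.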

How the data were processed

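Total RNA of 2 esophagus samples was hybridized to Affymetrix arrays, 1 per genotype, per the labels' protocols. The authors deposited 1 MAS5 signal intensity per probe set, per the submitters' processing notes. Both deposited columns have a mean intensity of 1500 after 2% of probe sets is trimmed from each end, so they share a scaling. The table holds 45101 probe sets, 64 of them array controls, which were left out, and no detection calls. Gene names are from GEO's platform annotation. Signals of at least 489 made up 55.4% of the null-labelled and 44.6% of the wild-type array. The number of arrays limits the precision.

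Log2 ratios were computed from these values as described above, with Python 3.11.15, pandas 2.3.3, numpy 2.4.6 and statsmodels 0.14.6. The steps were also run on simulated data with less spread than these, and with shifts set only in high-signal genes. That run is no check of calls near the limit. The members and lists were chosen with earlier results of these data known. Named members are, per family, those with a probe set at least 2-fold apart and the 3 highest-signal ones (all where 4 or fewer were measured), and others are marked as named after their values were seen. In each list outside the families up to 4 genes at least 2-fold apart are named, or else the 2 with the highest signal, and 2 further lists are not reported here. The alternatives tried were quantile normalization, centring on the median ratio, a loess fit against signal with span 0.3, limits at the 25th and at the 75th percentile, a pseudocount of 16 in place of a limit, the median over each gene's probe sets, a threshold of 4-fold, and removal of the probe sets whose names end in _x_at or _s_at.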

Additional observations from a re-analysis of the deposited data

How the results depend on the processing

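No paired analysis was possible because each genotype has 1 array. The 1 member that was 2-fold lower became 2 with centring, quantile normalization or loess, 4 with a 25th percentile limit, 8 with no limit and a pseudocount of 16, and 0 with the median of probe sets, without _x_at and _s_at probe sets, or at 4-fold. The 7 that were 2-fold higher became 3 with a 75th percentile limit, 9 with a 25th percentile limit, 12 with no limit, 2 with the median of probe sets and 0 at 4-fold. Centring gave 5 higher, and quantile normalization, loess and leaving out _x_at and _s_at probe sets gave 6 each. The members' share of higher genes was below that of all genes with the 25th percentile limit (13.6% against 16.6%), with no limit (17.9% against 19.5%) and with the median of probe sets (3.7% against 4.55%), and their share of lower genes was above it with no limit (11.9% against 9.37%). The 75th percentile limit left 34 members measured and no limit left all 67, and other causes were not tested. The median log2 ratio of the members stayed above 0 in all 8 alternatives that can move it, between 0.16 and 0.30. That of all measured genes lay between -0.033 and 0.17, and loess moved it to -0.021, against 0.086 as reported. Members above 0, 35 of 54 as reported and with centring, were 31 of 53 with quantile normalization or loess. They were 40 of 66 and 24 of 34 with the 25th and 75th percentile limits, and 41 of 67 with no limit. With the median of probe sets they were 36 of 54, and without _x_at and _s_at probe sets 34 of 53. Over all measured genes, 2-fold higher and lower calls were 449 and 938 with loess, against 800 and 714 as reported. Low signal limits the rest: 9 of the 54 ratios are bounds, 7 of them above 0. Low signals leaned to the null-labelled array over the whole series. Of all genes at or above the limit on both arrays 51.0% lay above 0 (median 0.014), against 56.6% of all measured genes (0.086). Of such members 62.2% lay above 0 (median 0.22). A member's bound above 0 is thus not particular to these families.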

Other observations

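Dcc and Neo1, netrin receptors outside the member families, had several measured probe sets. The 3 of Dcc each had 1 array under the limit and disagreed, reading 277, 701 and 549 on the null-labelled array, against 654, 188 and 26 on the wild-type array, and their log2 ratios were bounds of -0.42, 0.52 and 0.17. All 4 of Neo1 were above 0, with log2 ratios of 0.38, 0.45 and 0.51 and a bound of 1.21, and the one with the highest signal read 22865 on the null-labelled array, against 17536 on the wild-type array. Both genes were chosen after their values were seen.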
